A study of Mus musculus with 4 samples.

Results

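A group of 10 C-type lectin receptor genes of myeloid cells was followed through the heart: Clec4b1, Clec12a, Clec4a1, Clec4a2, Clec4a3, Clec4d, Clec4e, Clec4n, Clec7a and Clec10a. They were chosen by symbol, and 9 of the 10 listed symbols matched a row among 31053 genes. Clec7a was not analysed here. The set was proposed with earlier results from these libraries known, and which values decided the choice is not recorded. All differences between cell groups or diets are therefore given as descriptions of these libraries, and the tests beside them say only how a difference compares with the spread between libraries.

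The series holds droplet-based single-cell libraries of hearts from 6-week-old mice. Their mothers ate either a diet rich in resistant starch, a prebiotic fibre (high_fibre, 2 libraries), or one low in it (control_diet, 2 libraries) through pregnancy and lactation. All offspring of both groups were moved to standard chow at 3 weeks of age. Hearts were digested by enzyme perfusion, and live, metabolically active, nucleated cells were sorted, so any share of cells describes the sorted suspension. The labels give no strain, sex or number of animals per library. Whether each library is a separate animal is not stated either, so every p-value reflects only how far libraries lay apart, and that spread may be technical.

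C-type lectin receptors are membrane proteins of phagocytes that bind sugars, lipids or products of dying cells. Clec4d (MCL), Clec4e (Mincle), Clec4n (Dectin-2) and Clec4b1 (DCAR) have no activating motif of their own and pair with the Fc receptor gamma chain, encoded by Fcer1g, which recruits the kinase Syk and then Card9. Clec4a2 (DCIR) and Clec12a (MICL) carry an inhibitory tyrosine motif that recruits the phosphatases Ptpn6 and Ptpn11. Clec4a1 and Clec4a3 are relatives of DCIR without that motif. Clec10a (MGL1) binds terminal galactose and N-acetylgalactosamine and is known as a marker of alternatively activated macrophages and of some dendritic cells.

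The coordinates are those of GENCODE M21 on GRCm38, and 30934 of the 31053 gene identifiers matched it. Of the 10 genes, 9 lie on chromosome 6 and Clec10a lies on chromosome 11 (chr11:70156197-70170834, plus strand). The 7 genes from Clec4a1 to Clec4e stand within 368023 bases: Clec4a1 (chr6:122921848-122934619), Clec4a3 (chr6:122952515-122969875), Clec4b1 (chr6:123049962-123071555), Clec4a2 (chr6:123106428-123143999), Clec4n (chr6:123229843-123247021), Clec4d (chr6:123262111-123275265) and Clec4e (chr6:123281789-123289870). Clec4e is on the minus strand and the others of this cluster are on the plus strand. Clec12a (chr6:129342691-129365303, plus strand) lies further along. Clec4a1, Clec4a2, Clec4a3 and the listed relative Clec4a4 are similar in sequence, as are Clec4b1 and Clec4b2, so reads could be split between them. Clec4a2 also overlaps a processed pseudogene, Gm44132, on the same strand.

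The sequence upstream of a gene is shown for Clec4d and Clec4e, the neighbours that stood highest in neutrophils, and for Clec4b1, which was nearly absent there. Each line gives the 250 bases before the RefSeq start site on GRCm38.p6, read 5′ to 3′ on the gene's own strand. Capitals mark matches, on either strand, to the core letters GAGGAA bound by the myeloid factor PU.1 or to TTNCNNAA, a C/EBP pattern in which N is any base. The windows are chr6:123261857-123262106 (Clec4d, plus strand), chr6:123289872-123290121 (Clec4e, minus strand) and chr6:123049712-123049961 (Clec4b1, plus strand).
Clec4d: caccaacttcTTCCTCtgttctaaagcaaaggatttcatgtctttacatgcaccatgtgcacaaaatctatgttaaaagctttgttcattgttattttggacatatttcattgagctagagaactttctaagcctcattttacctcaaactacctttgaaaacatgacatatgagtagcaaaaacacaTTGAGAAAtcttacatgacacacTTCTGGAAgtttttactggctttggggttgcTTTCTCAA
Clec4e: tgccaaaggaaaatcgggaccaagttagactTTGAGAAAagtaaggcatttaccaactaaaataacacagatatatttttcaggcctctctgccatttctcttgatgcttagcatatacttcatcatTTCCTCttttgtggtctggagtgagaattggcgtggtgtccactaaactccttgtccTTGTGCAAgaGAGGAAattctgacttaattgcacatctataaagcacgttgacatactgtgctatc
Clec4b1: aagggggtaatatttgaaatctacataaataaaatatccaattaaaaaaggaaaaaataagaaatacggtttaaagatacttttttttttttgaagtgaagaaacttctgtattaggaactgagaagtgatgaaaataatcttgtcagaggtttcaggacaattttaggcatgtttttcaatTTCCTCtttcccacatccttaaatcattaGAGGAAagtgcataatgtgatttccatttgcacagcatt
The Clec4d window held 1 match to the PU.1 core and 3 to the C/EBP pattern, the Clec4e window 2 and 2, and the Clec4b1 window 2 and 0. RefSeq windows were matched for 7 of the 9 analysed genes. These genes had 8 windows, since Clec4a3 has a pair of start sites. A PU.1 core match was found in 6 of the 8 windows, against 23.3% of 32851 windows of the same length. A C/EBP match was found in 4 of the 8, against 36.8%. The other windows with C/EBP matches were those of Clec12a and Clec4a2, with 2 each. Neither gene had its highest mean level in neutrophils. The printed windows were picked by neutrophil level, so the contrast of their match counts describes that choice. A match is a description of letters only.

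The libraries held 26765 barcodes and 27577599 to 69600492 UMIs each, and 22514 cells were kept. Some barcodes occurred in more than 1 library: 799 of high_fibre 1, 814 of high_fibre 2, 505 of control_diet 1 and 802 of control_diet 2, which was 27% of that library. In all 4 libraries 450 barcodes were present. Shared barcodes had medians of 630 to 685 UMIs in the first 3 of these libraries and 17333 UMIs in control_diet 2. They made up 112 of the 205 TLF+ macrophages and 20 of the 75 other macrophages of control_diet 2. Levels are given with these cells. The orders and separations stated below were recomputed without them, and where one then changed the value is given beside it. All 4 libraries carried both Xist and Ddx3y UMIs, the transcripts of X-inactivation and of the Y chromosome. Cells were grouped by the UMIs of other genes. Macrophages had at least 15 UMIs of C1qa, C1qb and C1qc together. Those with at least 2 UMIs of Timd4, Lyve1 and Folr2, genes of self-renewing resident macrophages, are called TLF+ macrophages (2233 cells: 624, 873, 531 and 205 in high_fibre 1, high_fibre 2, control_diet 1 and control_diet 2, the order used for all values below). The other macrophages numbered 932 (326, 298, 233 and 75). Monocytes (150 cells: 56, 49, 32 and 13) had at least 2 UMIs of Plac8 and Ly6c2 together and at most 5 of C1q. They also needed at least 4 UMIs of Lyz2 and Csf1r, at least 4 of Tyrobp and Fcer1g, and at most 1 of lymphoid genes. Neutrophils (129 cells: 54, 34, 31 and 10) had at least 20 UMIs of S100a8 and at most 5 of C1q. The gates are cut from continuous counts: 322 kept cells had 6 to 14 C1q UMIs and belonged to no macrophage group, and 217 macrophages had 1 UMI of the TLF genes and 267 had 2 or 3.

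The marker lists were read in each group. The 7 neutrophil markers summed to 84485 to 141528 CPM (UMIs per 1000000 UMIs of the cell group) in the neutrophil gate. That gate also carried 5 B cell markers at 391.6, 926.1, 2404 and 3833 CPM in all, and their part in the neutrophil levels below was not tested. The 6 resident macrophage markers, which include the 3 gate genes, summed to 4010 to 4211 CPM in TLF+ and 857 to 927 CPM in other macrophages. The 10 monocyte markers summed to 4840 to 6070 CPM in the monocyte gate. They summed to 1737 to 1928 CPM in TLF+ macrophages, of which F13a1 made up 1590 to 1844 CPM, while Plac8 had 0.864 to 11.02 CPM. In other macrophages Ccr2, the receptor of recruited monocytes, stood at 136.6, 245.6, 173.9 and 214 CPM, against 11.95 to 42.18 CPM in TLF+ macrophages.

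The receptors marked the myeloid gates as a set. In TLF+ macrophages 1.7% of cells, in other macrophages 4.08%, in monocytes 0.667% and in neutrophils 3.88% had no UMI of any of the 9 genes. The median number of receptors detected in a cell was 5, 4, 4 and 2 in these groups. Among 6943 fibroblast-gate and 6746 endothelial-gate cells, 96.9% and 97.7% had none, although their median depths of 12285 and 5033.5 UMIs spanned that of the monocytes (7961 UMIs) and exceeded that of the neutrophils (2585 UMIs). No receptor passed 1.03 CPM in those stromal gates taken over all libraries. B-gate cells carried Clec12a at 21, 21.45, 27.32 and 28.94 CPM, with a UMI in 74 of 909 cells, and each of the other 8 receptors at or below 7.14 CPM over all libraries.

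**Figure D1:**
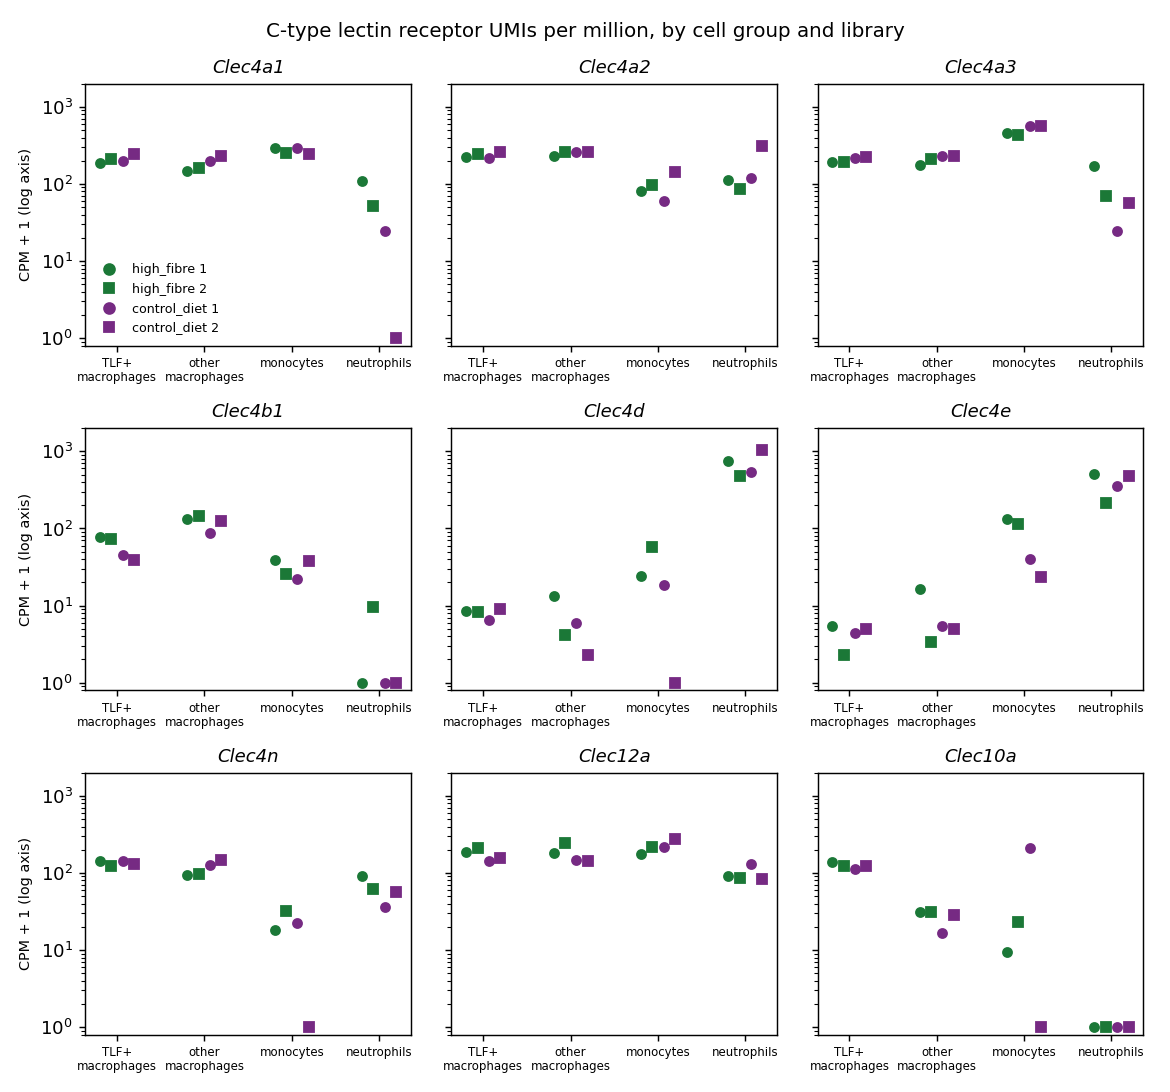
CPM plus 1 (log axis) of each receptor in TLF+ macrophages, other macrophages, monocytes and neutrophils, with 1 point per library (green, high_fibre; purple, control_diet; a point at 1 is a count of 0). Clec4d and Clec4e were highest in neutrophils, Clec4a3 in monocytes, and Clec4b1 in other macrophages, in all 4 libraries.

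Clec4d and Clec4e, receptors of mycobacterial and damage-related glycolipids, were neutrophil transcripts in this tissue. Clec4d stood at 747.6, 480.2, 542 and 1028 CPM in neutrophils, at 23.48, 55.94, 17.59 and 0 CPM in monocytes, and at 5.595 to 8.008 CPM in TLF+ macrophages. Every neutrophil value lay above every value of the other groups. The 0 in the monocytes of control_diet 2 came from 133674 UMIs, which allows up to 22.4 CPM. Clec4d was found in 79.8% of neutrophils (60.5% when each cell was thinned to 1500 UMIs) and in 0.072% of fibroblast-gate cells.

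Clec4e was spread more widely, over neutrophils and monocytes. It stood at 504.3, 214.4, 353.5 and 472.2 CPM in neutrophils, at 132.3, 114.1, 38.7 and 22.44 CPM in monocytes and at 4.463, 1.286, 3.391 and 4.004 CPM in TLF+ macrophages. The 3 groups did not overlap: each monocyte value lay between the neutrophil and the macrophage values. Clec4d and Clec4e were detected in the same cell in 62 of 129 neutrophils, of which 103 had Clec4d and 73 Clec4e. In monocytes both were detected in 14 of 150 cells, 20 with Clec4d and 59 with Clec4e. In TLF+ and other macrophages both were seen in 5 of 2233 and 5 of 932 cells. Whether these joint counts exceed what separate detection of the genes would give was not tested. The 23 dendritic-like cells, gated by Flt3 and Cd209a, held 1 UMI of Clec4d and 0 of Clec4e in 320604 UMIs.

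In other macrophages Clec4e stood at 15.6, 2.392, 4.496 and 3.938 CPM and Clec4d at 12.14, 3.189, 4.996 and 1.313 CPM, so that high_fibre 1 lay above the rest for both. The 7 neutrophil markers moved the same way: they summed to 320.4 CPM in the other macrophages of high_fibre 1 and to 12.49 to 28.88 CPM in those of the remaining libraries, with Ly6g at 0 in all 4. In that library 3 of the other macrophages held at least 5 S100a8 UMIs. The part of these cells in the Clec4e and Clec4d levels was measured only by leaving them out, as given with the macrophage comparison.

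Clec4n, a receptor of fungal mannans, was a macrophage transcript. It stood at 140.5, 122.2, 140.9 and 131 CPM in TLF+ macrophages and at 93.62, 95.28, 126.9 and 147 CPM in other macrophages. These ranges overlapped. Monocytes (17.08, 31.33, 21.11 and 0 CPM) and neutrophils (89, 60.02, 35.35 and 55.56 CPM) lay below both macrophage groups, and every neutrophil value lay above every monocyte value. The neutrophil values rest on 27 UMIs, and the monocyte 0 allows up to 22.4 CPM.

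Clec4b1, the mouse DCAR receptor of mycobacterial phosphatidylinositol mannosides, was higher in other macrophages than in TLF+ macrophages, monocytes and neutrophils. It stood there at 132.8, 145.1, 86.93 and 123.4 CPM, against 76.01, 70.94, 44.25 and 38.04 CPM in TLF+ macrophages. Within each library the other macrophages were higher, and the ranges over libraries did not overlap. Monocytes had 38.42, 24.61, 21.11 and 37.4 CPM, below both macrophage groups of the same library. With shared barcodes left out the control_diet 2 value was 50.95 CPM, above the 38.6 CPM of its TLF+ macrophages. Neutrophils held 1 Clec4b1 UMI in 406026. Dendritic-like cells carried 65 UMIs in 320604, or 202.7 CPM (95% exact Poisson interval 156.5 to 258.4), from 11 of 23 cells. Exact intervals here cover counting error only.

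The inhibitory pair differed in where it dropped. Clec4a2 was at 221.8, 241.7, 213.6 and 260.8 CPM in TLF+ macrophages and at 227.5, 261.5, 257.8 and 257.3 CPM in other macrophages. In monocytes it was lower in every library, at 81.12, 96.22, 59.82 and 142.1 CPM. Neutrophils had 112.7, 85.75, 117.8 and 305.6 CPM on 50 UMIs, which overlapped both. Clec12a, a receptor of uric acid crystals, stood at 188.6, 208.8, 140.7 and 154.7 CPM in TLF+ macrophages, at 178.9, 243.6, 147.9 and 143.1 CPM in other macrophages and at 177.2, 219.3, 214.6 and 276.8 CPM in monocytes. Those 3 ranges overlapped one another, and the neutrophil values (89, 85.75, 129.6 and 83.33 CPM) lay below all of them. With shared barcodes left out this order failed: other macrophages of control_diet 2 then stood at 117.5 CPM, below the neutrophils of control_diet 1.

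The DCIR relatives without the motif peaked in monocytes. Clec4a3 stood at 463.2, 434.1, 555.9 and 561.1 CPM in monocytes, above every macrophage value (174.8 to 232.3 CPM in both macrophage groups), and it was found in 90% of monocytes. Clec4a1 stood at 294.6, 252.8, 288.5 and 246.9 CPM in monocytes, at 187, 207.3, 197.9 and 242.8 CPM in TLF+ macrophages and at 147.7, 160.7, 194.8 and 232.3 CPM in other macrophages. The monocyte values of Clec4a1 were higher than the macrophage values in all 4 libraries, by little in control_diet 2. Neutrophils had 106.8, 51.45, 23.57 and 0 CPM of Clec4a1 and 172.1, 68.6, 23.57 and 55.56 CPM of Clec4a3. These neutrophil values rest on 26 and 41 UMIs.

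Clec10a marked TLF+ macrophages and a few dendritic-like cells. It stood at 139.6, 121.4, 110 and 121 CPM in TLF+ macrophages, and at 29.82, 29.9, 15.49 and 27.56 CPM in other macrophages. The lowest TLF+ library was above the highest of the other macrophages. Neutrophils held no Clec10a UMI in 406026, which allows up to 7.39 CPM. The monocyte values of 8.539, 22.38, 211.1 and 0 CPM did not describe a common level: in control_diet 1, 50 of the 60 UMIs came from 1 cell, and 58 of the 60 from the 3 monocytes with a Flt3 or Cd209a UMI. Without such cells the monocyte values were 9.471, 11.03, 8.556 and 0 CPM. Dendritic-like cells held 98 Clec10a UMIs, or 305.7 CPM (95% exact Poisson interval 248.2 to 372.5), in 10 of 23 cells.

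Between the macrophage groups, Clec10a was higher in TLF+ cells, and Clec4b1, Clec4e and Clec4a2 were higher in the other macrophages. In control_diet 2 Clec4e (4.004 CPM in TLF+, 3.938 in other) and Clec4a2 (260.8 and 257.3 CPM) went slightly the other way. With shared barcodes left out that library had 4.173 and 6.078 CPM of Clec4e and 226.4 and 251.2 CPM of Clec4a2. The groups were compared within libraries on summed UMI counts with edgeR's quasi-likelihood test and Benjamini-Hochberg adjustment over all 10426 genes tested. Over all genes 22.1% were called at an adjusted p under 0.05, 9.98% higher in TLF+ macrophages and 12.1% lower. Of the 9 receptors 4 were called, 1 higher and 3 lower. All 9 were tested, and the median log2 fold over all genes was -0.015.

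The Clec10a log2 fold was 2.16 (SE 0.10, adjusted p 7.25e-13, edgeR). The Clec4b1 log2 fold was -1.14 (SE 0.10, adjusted p 9.95e-07), in the same direction in 4 of 4 libraries. Both were called under all 15 alternatives, shared barcodes left out among them, Clec10a between 2.01 and 2.32 and Clec4b1 between -1.24 and -1.03. The Clec4e log2 fold was -1.16 (SE 0.34, adjusted p 0.0178, edgeR) and rested on high_fibre 1, the library with the neutrophil markers: without it the fold was -0.55 (adjusted p 0.551). With called doublets kept the Clec4e adjusted p was 0.0651. With the 3 S100a8-carrying macrophages left out the fold was -1.11 (adjusted p 0.0223). The Clec4a2 difference was small, at -0.21 (SE 0.06, adjusted p 0.00895, edgeR), and without control_diet 1 its adjusted p was 0.1.

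The remaining 5 receptors were not called. The edgeR fold of Clec12a was -0.15 (SE 0.06, adjusted p 0.0926) and that of Clec4a1 was 0.10 (SE 0.07, adjusted p 0.307). Clec4a3 had -0.16 (SE 0.06, adjusted p 0.0598), and its adjusted p was 0.0331 with a gate of 4 TLF UMIs. Clec4n had 0.17 (SE 0.09, adjusted p 0.242). Its fold depended on the gate: it was 0.30 (adjusted p 0.00539) when 1 TLF UMI sufficed and -0.03 (adjusted p 0.955) when 4 were required. Clec4n was also called with every gene that had a UMI (0.22, adjusted p 0.0155) and without control_diet 2 (0.28, adjusted p 0.0136). Clec4d had 0.12 with an SE of 0.33.

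**Figure D2:**
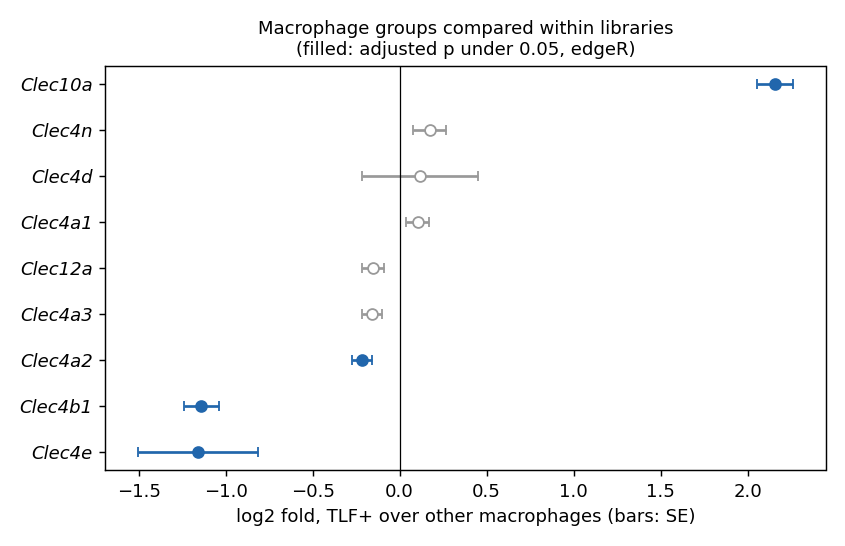
Log2 fold of each receptor in TLF+ over other macrophages, with bars of 1 SE, from the fit with the library as a block (filled points, adjusted p under 0.05). Clec10a lies at 2.16, Clec4b1 at -1.14 and Clec4e at -1.16, the last with the widest bar of the called genes.

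Other macrophages were then split by Ccr2, a gene that no gate had used. Of these cells 20.2%, 22.1%, 18% and 14.7% had a Ccr2 UMI. Clec4b1 stood at 248.5, 282.1, 197.3 and 326.5 CPM in the cells with Ccr2 and at 84.2, 90.77, 55.28 and 64.37 CPM in those without. The ranges did not overlap. Clec4n went the other way, with 43.37, 50.52, 60.55 and 29.16 CPM in cells with Ccr2 and 114.7, 113, 145.9 and 181.2 CPM in cells without it. Clec12a was higher with Ccr2 in every library (207.5, 324.2, 217.5 and 209.9 against 166.9, 211.6, 127.9 and 123.7 CPM), but the ranges overlapped. In control_diet 2 only 11 other macrophages had a Ccr2 UMI, and 7 of these had shared barcodes. Over the remaining 4 cells Clec4b1 stood at 408.4, Clec4n at 22.69 and Clec12a at 45.38 CPM, so the Clec12a difference turned round in that library while those of Clec4b1 and Clec4n kept their direction. Over all libraries median depths were 10491 UMIs with and 7986 without Ccr2. No test was run on this split.

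Monocytes were split by Ly6c2, a marker of classical monocytes, into 48 cells with at least 2 UMIs and 94 with none. Cells with 1 Ly6c2 UMI were in neither part. Ly6c2 is itself a gene of the monocyte gate, so the cells without it had all entered through Plac8. Clec4a2 stood at 152, 154.1, 69.44 and 249.7 CPM with Ly6c2 and at 35.77, 37.38, 48.4 and 16.23 CPM without. The Clec4a2 values did not overlap, although the last rests on 1 UMI. Clec4a3 was at 287.8, 335.8, 468.7 and 568.8 CPM with Ly6c2 and at 568.7, 469.3, 636.1 and 552 CPM without, higher without Ly6c2 in 3 of 4 libraries. Without shared barcodes control_diet 2 joined them, at 759.7 with and 875.2 CPM without Ly6c2. Clec4a1 was at 271.5, 159.6, 234.4 and 222 CPM with and at 307.6, 315.6, 318.1 and 276 CPM without Ly6c2, and these ranges did not overlap. With shared barcodes left out the Clec4a1 value of control_diet 2 was 318.6 CPM with Ly6c2, from 4 cells, and the ranges overlapped, while those of Clec4a2 did not. Median depths were 10835 and 7032 UMIs, and no test was run.

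**Figure D3:**
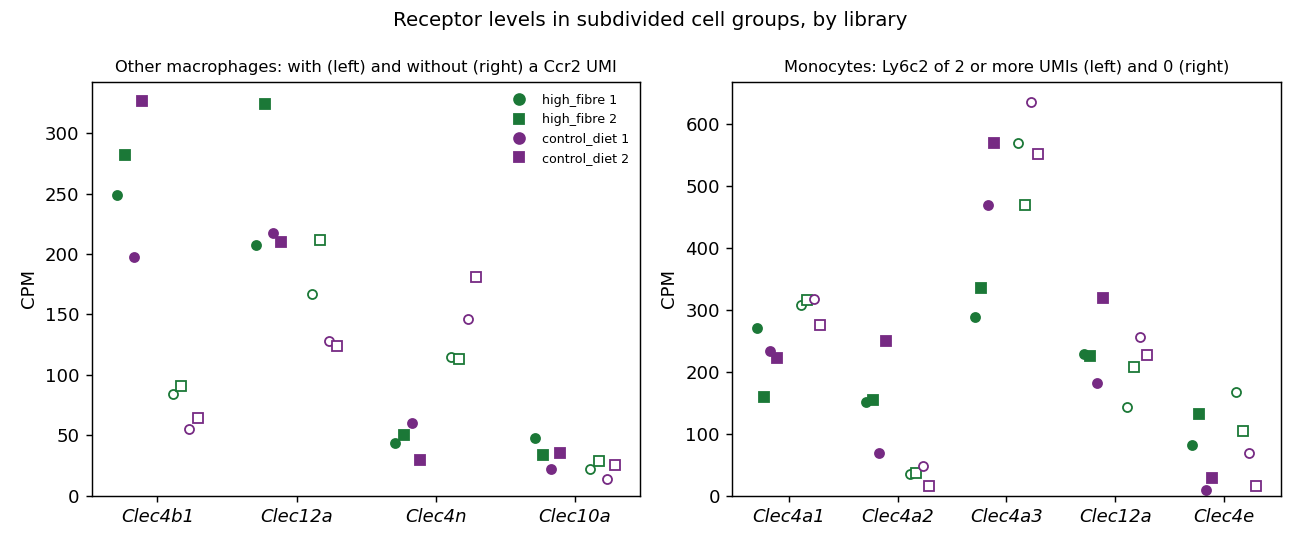
Left, CPM of 4 receptors in other macrophages with a Ccr2 UMI (filled) and without (open). Right, CPM of 5 receptors in monocytes with at least 2 Ly6c2 UMIs (filled) and with 0 (open), with 1 point per library (green, high_fibre; purple, control_diet). Clec4b1 is higher with Ccr2 and Clec4n lower in all 4 libraries, and Clec4a2 is higher with Ly6c2.

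The maternal diets were compared in macrophages, the groups with at least 20 cells in every library. Clec4b1, Clec12a and Clec10a were higher in both high_fibre libraries in TLF+ and in other macrophages, and none passed the adjustment over all genes. No gene did: 0 of 11443 genes were called in all macrophages, 0 of 10973 in TLF+ and 0 of 9348 in other macrophages (0% each) by edgeR, and 0 in each by DESeq2. At an unadjusted p under 0.05 edgeR had 347, 328 and 335 genes. Of the 9 receptors 4 had values that did not overlap between diets in all macrophages, 4 in TLF+ and 6 in other macrophages, where 28.1%, 28.8% and 30.9% of all genes tested did. With shared barcodes left out, Clec10a overlapped in other macrophages (24.85, 30.1, 15.61 and 30.39 CPM) and Clec4n no longer overlapped in TLF+ macrophages (137.8, 123.6, 141.7 and 144 CPM). The count in all macrophages was not redone without these barcodes and may differ.

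For Clec4b1 the TLF+ means were 73.5 ± 3.58 CPM in high_fibre and 41.1 ± 4.39 CPM in control_diet (SD, n = 2 libraries each), and the edgeR log2 fold was 0.84 (SE 0.14, adjusted p 1). In other macrophages the means were 139 ± 8.70 and 105 ± 25.8 CPM, and the edgeR log2 fold was 0.45 (SE 0.18, adjusted p 1). Leaving out 1 library at a time kept the TLF+ fold between 0.73 and 1.00. The fold in all macrophages was 0.73 (SE 0.13, adjusted p 1), and 0.60 when every shared barcode was left out. The call depended on the filter: with every gene that had a UMI in the fit, the adjusted p of Clec4b1 was 1.66e-06 in TLF+ and 1.44e-05 in all macrophages, and over the alternatives it ran up to 1.

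Among other macrophages split by Ccr2, the Clec4b1 values of the diets lay apart in the cells without Ccr2. High_fibre values were 84.2 and 90.77 CPM and control_diet values 55.28 and 64.37 CPM. In the same cells Clec12a was also higher in both high_fibre libraries, and Clec4a1, Clec4a3 and Clec4n were lower. In the cells with Ccr2 the diets overlapped for Clec4b1. There Clec4a1, Clec4a2 and Clec4a3 were lower in both high_fibre libraries, and Clec4d was higher. The Clec4d values in these cells rest on 19, 3, 1 and 0 UMIs. The 0 allows up to 17.49 CPM, above the 4.21 CPM of high_fibre 2. With shared barcodes left out, Clec4a2 overlapped in the cells with Ccr2 (113.5 CPM in control_diet 2) and Clec12a lay apart (45.38 CPM). The share of all genes that lay apart was not measured in these cells. The limma test of the difference between the diet effects in TLF+ and other macrophages gave 0.41 for Clec4b1 (SE 0.34, adjusted p 0.968) and called 0 of 9867 genes (0%), with 468 at an unadjusted p under 0.05. In monocytes the Clec4b1 values of the diets overlapped.

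Clec12a had TLF+ means of 199 ± 14.3 CPM in high_fibre and 148 ± 9.90 CPM in control_diet (SD, n = 2 libraries each), and the edgeR log2 fold was 0.45 (SE 0.10, adjusted p 1), or 0.52 with shared barcodes left out. In other macrophages the means were 211 ± 45.8 and 146 ± 3.39 CPM, with a fold of 0.54 (SE 0.16, adjusted p 1). With the replicate numbers of the labels as a block, Clec12a was called there (0.515, adjusted p 0.042, edgeR). With every gene that had a UMI in the fit, the adjusted p was 0.0323 in TLF+ and 0.0331 in all macrophages. In monocytes the diets overlapped (177.2 and 219.3 against 214.6 and 276.8 CPM).

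Clec4a1, Clec4a3 and Clec4n were lower in both high_fibre libraries among other macrophages, and Clec4a3 also in TLF+ macrophages and monocytes. Their log2 folds there were -0.45 (SE 0.14), -0.27 (SE 0.14) and -0.51 (SE 0.15), each with an adjusted p of 1 (edgeR). In TLF+ macrophages the folds were -0.14 (SE 0.11), -0.17 (SE 0.10) and -0.03 (SE 0.13). With shared barcodes left out they were -0.45, -0.30 and -0.58 in other and -0.23, -0.32 and -0.13 in TLF+ macrophages, and the Clec10a folds were 0.49 and 0.25. Clec10a had folds of 0.20 (SE 0.13) in TLF+ and 0.61 (SE 0.28) in other macrophages, and Clec4a2 had -0.01 (SE 0.11) and -0.06 (SE 0.14). The Clec4d folds were 0.155 (SE 0.265) and 1.05 (SE 0.83), and those of Clec4e -0.40 (SE 0.63) and 1.11 (SE 1.03). The 5 B cell markers summed to 149.3 CPM in the TLF+ and 166.7 CPM in the other macrophages of control_diet 2, against 27.98 to 52.36 CPM in the remaining libraries, and their part in these results was not tested.

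**Figure D4:**
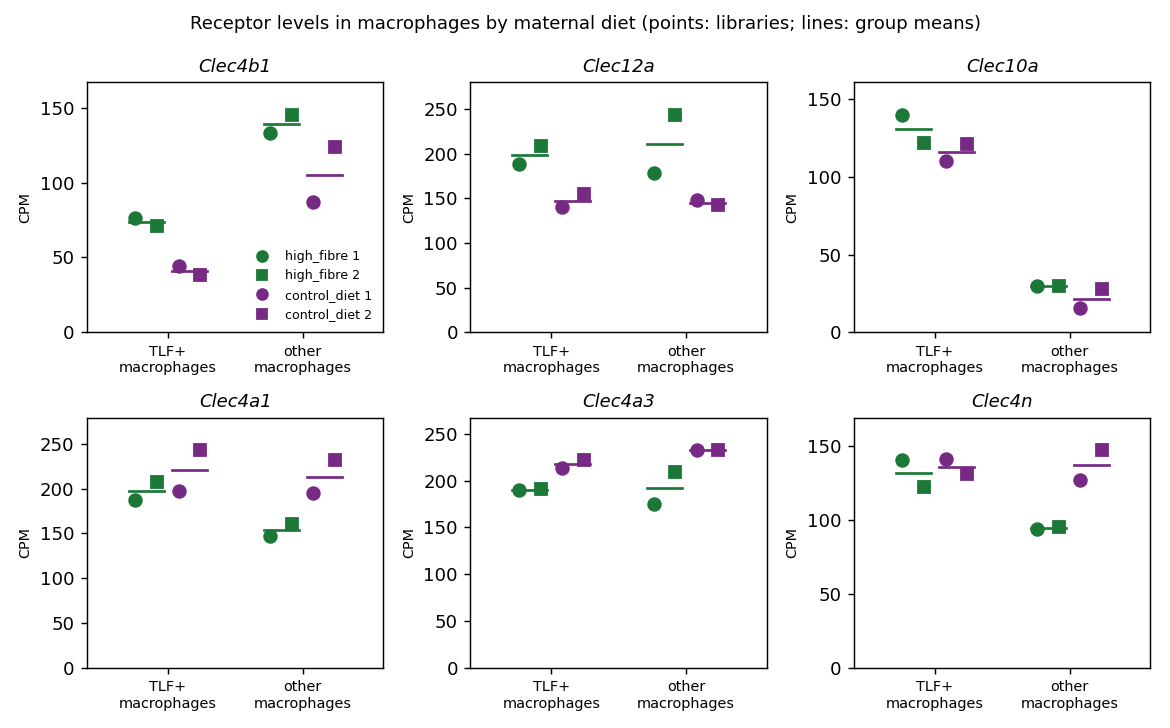
CPM of 6 receptors in TLF+ and other macrophages, with 1 point per library and a line at each group mean (green, high_fibre; purple, control_diet; axes start at 0). Both high_fibre libraries lie above both control_diet libraries for Clec4b1, Clec12a and Clec10a in both groups. For Clec10a in TLF+ macrophages the nearest values are 121.4 and 121 CPM. They lie below the control_diet libraries for Clec4a1, Clec4a3 and Clec4n in other macrophages, and for Clec4a3 also in TLF+ macrophages.

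Monocytes and neutrophils numbered under 20 cells in control_diet 2, and their diets were not tested. Among monocytes 3 of the 9 receptors did not overlap between diets, where 32.6% of 4578 genes did. Without shared barcodes Clec4a1 did not overlap either (280.2, 252.8, 288.5 and 382.1 CPM). Clec4a3 was lower in high_fibre, with means of 449 ± 20.6 against 559 ± 3.68 CPM (SD, n = 2 libraries each). Clec4d was higher, at 23.48 and 55.94 against 17.59 and 0 CPM. Clec4e was also higher, at 132.3 CPM (95% exact Poisson interval 101.5 to 169.7) and 114.1 CPM (84.97 to 150) in high_fibre and 38.7 CPM (19.32 to 69.25) and 22.44 CPM (4.628 to 65.59) in control_diet. A Clec4e UMI was found in 26 of 56, 24 of 49, 7 of 32 and 2 of 13 monocytes. The 7 neutrophil markers summed to 100.3, 125.3, 91.48 and 119.7 CPM in these monocytes, with Ly6g at 0. Among neutrophils 4 of the 9 did not overlap, where 42.4% of 1576 genes did. In both cell groups the share over all genes covers only genes that passed the minimum count filter. The 9 receptors were counted without that filter, which some of them do not pass, so the shares are not of like gene sets.

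Other genes of the pathway were read from 3 lists. Of 33 other lectin-like genes 18 were tested between the macrophage groups, and 6 were higher and 5 lower in TLF+ macrophages, with a median log2 fold of 0.05. Of all genes tested 9.98% were higher and 12.1% lower, with a median of -0.015. Cd209f, a relative of DC-SIGN, stood at 22.03, 11.76, 28.99 and 0 CPM in TLF+ macrophages and had 1, 0, 2 and 0 UMIs in other macrophages, with a fitted fold of 5.45 (SE 0.39, adjusted p 1.32e-09, edgeR). Cd209g was at 7.198, 6.524, 13.56 and 0 CPM in TLF+ macrophages and had no UMI in other macrophages, which makes it at least 20.1-fold higher against 3 counts over the group. The list median was the same with Cd209g at that bound. Mrc1, the mannose receptor, had 0.90. Cd69, an activation marker, had -2.01 and Cd72, an inhibitory receptor best known from B cells, -1.54. Clec2i had -1.05. Clec9a, a receptor of damaged cells, had -1.71 (SE 0.58, adjusted p 0.0377, edgeR) on 3, 21, 1 and 6 UMIs in TLF+ and 11, 13, 2 and 0 UMIs in other macrophages, and control_diet 2 went the other way. Mgl2, the neighbouring relative of Clec10a, had only 0.37 (SE 0.05, adjusted p 2.87e-06).

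Of 22 signalling genes all were tested, and 0 were higher and 12 lower in TLF+ macrophages, with a median of -0.29 (all genes: 9.98% higher, 12.1% lower). Among those lower were the kinases Fgr (-1.96) and Src (-1.39), the phospholipase Plcg2 (-0.67), the exchange factor Vav1 (-0.60) and the protease Malt1 (-0.51). The adaptor Tyrobp had -0.27. The receptor adaptor Fcer1g had -0.11 (SE 0.04, adjusted p 0.0545, edgeR) and Syk -0.03 (SE 0.06, adjusted p 0.823), and neither of the last pair was called. Of 16 response genes all were tested, and 2 were higher and 8 lower in TLF+ macrophages, with a median of -0.81 (all genes: 9.98% higher, 12.1% lower). The chemokines Ccl7 (1.83) and Ccl2 (0.47) were higher, and Il1b (-2.12), Ccl4 (-1.57), Ccl3 (-1.40), Egr3 (-1.12), Tnf (-0.96) and Cxcl2 (-0.80) were lower. Il1b is also a neutrophil transcript, at 9278 CPM or more in the neutrophil gate, and the neutrophil markers of high_fibre 1 stand beside it. In each diet comparison 0 genes of the 3 lists were called.

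The genes most like each receptor were ranked over 12 values, the 4 libraries of TLF+ macrophages, other macrophages and monocytes, by Pearson correlation of log2(CPM + 1) among genes of at least 20 CPM. The 12 values share libraries, and the 3 cell groups set most of the order. Clec4b1 was most like Plxdc2 (0.93), and Clec10a like Tpd52l2 (0.97). Clec4a2 was most like Cttnbp2nl (1.00), Clec4n like Inppl1 (0.99), and Clec4a3 like Igsf6 and Cd47 (0.99 each). Clec4a1 was most like Vta1 (0.94), Clec4d like Tmem131l (0.96) and Clec4e like Ybx3 (0.95). Clec12a had the lowest leading value, 0.84 with Pcmt1.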

How the data were processed

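The deposited files hold raw UMI counts, as whole numbers for every gene in every barcode, made with Cell Ranger 3.1.0 and the mm10 build per the submitters' processing notes. No barcode held fewer than 500 UMIs. From these counts, barcodes with at least 250 genes and at most 20% mitochondrial UMIs were kept, and doublets were scored against simulated ones and removed (2.16% to 6.56% of barcodes). Cells were gated on UMIs of named genes and summed per library and group. CPM are UMIs per 1000000 of the group's total. Tests used edgeR 4.0.16 (TMM, quasi-likelihood, a minimum count of 10), limma 3.58.1 for the difference of diet effects and DESeq2 1.42.0 as an alternative, in R 4.3.3, with Benjamini-Hochberg adjustment over all genes tested, and were tested on simulated data. Levels and figures used Python 3.11.15, scipy 1.17.1 and matplotlib 3.10.9. Library totals bound the precision: 133674 to 468458 UMIs for monocytes and 36000 to 168538 for neutrophils. The library is the replicate, and the diet fits carry no pairing.

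The members, gates and lists were chosen with earlier results of these data known. All 10 listed genes are named, with, from each pathway list, at most 6 called genes by size of fold and the 2 of highest level, and the 3 genes most like each receptor (the leading ones are printed). Ccl2 and Syk were named after their values were seen. A signalling gene that the rule names is not reported here. Alternatives changed the normalization, count filter, gates, doublets, pairing and libraries, and, added after seeing the data, left out shared barcodes (fits and levels) or macrophages with at least 5 S100a8 UMIs.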

Additional observations from a re-analysis of the deposited data

How the results depend on the processing

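Of 45 receptor results, 30 kept their direction under all their alternatives, and of 634 values 23 changed sign, 5 lost and 10 gained a call. With every gene that had a UMI, the diet calls were 39 genes in all macrophages, 44 in TLF+ and 11 in other macrophages, with 2, 2 and 0 receptors. For the repeat numbers of the labels, each gene's diet mean was subtracted first. The deviations left in high_fibre 1 and control_diet 1 then correlated across genes at 0.15, 0.131 and 0.24 in all, TLF+ and other macrophages. With 2 libraries per diet this is a single comparison, and the repeat numbers were not taken as pairing. With the replicate block, 3, 1 and 97 genes were called, and 1 receptor, Clec12a in other macrophages (adjusted p 0.042, edgeR). Without the library as a block, the macrophage comparison called 1299 genes and 2 receptors.

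Leaving out each library gave 0 to 45 called genes and 0 to 1 receptors in all macrophages (45 and Clec4b1, adjusted p 0.0283, without high_fibre 2), 0 to 14 genes in TLF+ macrophages (14 without high_fibre 2) and 0 to 42 in other macrophages (42 without high_fibre 2 and 24 without high_fibre 1). A lone library is then assumed to vary like the other group. Signs of the diet fold changed as follows. Leaving out libraries gave Clec4a2 -0.093 to 0.055 in all and -0.12 to 0.12 in TLF+ macrophages, Clec4e -1.38 to 1.10 and -1.53 to 0.36, Clec4n -0.19 to 0.12 (0.059 without control_diet 1) and Clec4d -0.081 to 0.38 in TLF+, and Clec4d -0.29 to 2.57 in other macrophages. Without shared barcodes Clec4a2 was 0.017 in all and 0.062 in TLF+ macrophages, and in TLF+ with every gene 0.005. Clec4n was 0.051 with a gate of 4 TLF UMIs, and Clec4e 1.10 with doublets kept. In the macrophage comparison Clec4n was -0.026 with that gate, and Clec4d ran from -0.22 to 0.83 over left-out libraries (-0.05 without control_diet 2). For the difference of diet effects, left-out libraries gave Clec4a3 -0.021 to 0.20, Clec4a2 -0.08 to 0.20, Clec4d -2.07 to 0.051, Clec12a -0.22 to 0.039 and Clec10a -0.69 to 0.007. Clec4a3 was -0.025 there without shared barcodes, and Clec4e 0.043 with doublets kept. The causes were not tested. Monocyte diet fits were not run, as control_diet 2 had 13 monocytes, so the monocyte gates gave levels only.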

Other observations

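The monocyte level of a receptor depended on how strictly monocytes were gated. With the Plac8 or Ly6c2 rule alone, which admits cells without myeloid transcripts, the gate held 234, 194, 177 and 52 cells, and Clec4a3 stood at 142.7, 166.5, 125.8 and 159.5 CPM in place of 463.2, 434.1, 555.9 and 561.1 CPM. With at least 4 Plac8 and Ly6c2 UMIs it stood at 464.5, 490.4, 587.8 and 685.5 CPM in 45, 44, 30 and 11 cells. Clec4b1 was at 13.08 to 17.02 CPM under the first rule and at 13.11 to 46.95 CPM under the second.

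Of the 10 Clec4b1 UMIs in the 68 B-gate cells of control_diet 2, all came from 1 cell. In the B gates of the other libraries Clec4b1 had 0, 1 and 0 UMIs.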
